A study of Mus musculus with 10 samples.

Results

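The genes described here are 10 markers of the immune cells that live in brown fat, chosen by symbol from a count table of 54347 gene records. The tissue was interscapular brown adipose tissue (iBAT), a fat depot of the upper back that burns lipid to make heat. They are Adgre1, Cd68, Lyz2, Mrc1, Csf1r and Cd14, which mark macrophages and related myeloid cells, Ptprc, which marks all leukocytes, and Cd74, H2-Aa and H2-Ab1, which belong to antigen presentation by major histocompatibility complex (MHC) class II. All 10 were found, 1 record each, and all 10 passed the filter on low counts, as did 13732 records in all. Poly A RNA of whole tissue was sequenced from 10 mice of 12 weeks on the C57BL/6N background. Of these, 5 were ΔGm15551 mice (replicates 1, 2, 4, 5 and 7), which lack exon 1 of the long non-coding RNA gene Gm15551 after CRISPR/Cas9 editing and backcrossing, and 5 were wild type (replicates 2, 3, 5, 6 and 7), called litter mates in the series description, with no litter given for single mice. Both groups were kept alone in their cages at 4 °C for 24 h before dissection, so the comparison is one of genotype in the cold, and no warm mice enter it.

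Tissue macrophages take up dead cells and debris and depend on signals through the receptor encoded by Csf1r. They share the MHC class II machinery with dendritic cells and B cells: H2-Aa and H2-Ab1 encode the α and β chains of the I-A molecule, and Cd74 encodes the invariant chain that guides the new molecule to the compartment where it is loaded with peptide. In brown fat such cells are a minority beside adipocytes and endothelial cells, and class II genes are switched on together by the transactivator CIITA, which acts with RFX, CREB and NF-Y proteins bound at their promoters. The ETS factor PU.1 (Spi1), in turn, serves many myeloid promoters.

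Promoter sequence was read from RefSeq (GRCm38.p6) to show these elements in genes measured here. An entry was found for 5 of the 10 genes, Ptprc, Mrc1, Lyz2, Cd68 and H2-Aa, and for H2-Eb1, the β chain gene of the I-E molecule, which is no member and is shown as a class II neighbour. Adgre1, Csf1r, Cd14, Cd74 and H2-Ab1 had no entry. Windows of the 250 bases before each start were searched on both strands for TGATTGG, an inverted CCAAT box of the kind NF-Y binds, for TGACGTCA, a full CREB-type site, and for GGAAGT, an ETS core. In the stretches printed 5′ to 3′ along the gene, capitals mark these letters or their reverse complement.
H2-Aa (chr17:34287824-34287973, minus strand): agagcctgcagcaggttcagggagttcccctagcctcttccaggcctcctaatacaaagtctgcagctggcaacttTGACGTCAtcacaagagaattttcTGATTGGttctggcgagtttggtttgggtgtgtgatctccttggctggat
H2-Eb1 (chr17:34305721-34305866, plus strand): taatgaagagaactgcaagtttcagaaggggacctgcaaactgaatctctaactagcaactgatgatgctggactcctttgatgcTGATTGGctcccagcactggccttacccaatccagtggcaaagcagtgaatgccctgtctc
Cd68 (chr11:69666171-69666320, minus strand): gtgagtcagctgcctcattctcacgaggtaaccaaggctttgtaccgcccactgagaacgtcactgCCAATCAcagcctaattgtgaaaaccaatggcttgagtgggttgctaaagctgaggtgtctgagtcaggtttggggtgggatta
Lyz2 (chr10:117282322-117282422, minus strand): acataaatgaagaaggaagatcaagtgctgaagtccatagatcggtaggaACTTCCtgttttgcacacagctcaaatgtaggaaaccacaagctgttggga

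The inverted CCAAT box lay 50 to 44 bases before the start of H2-Aa and 61 to 55 bases before that of H2-Eb1, and on the opposite strand 84 to 78 bases before that of Cd68. These letters occurred in 7.23% of all 32851 promoter windows. H2-Aa also held the CREB-type site at 74 to 67 bases, which occurred in 1.55% of windows. An ETS core lay on the opposite strand 100 to 95 bases before the start of Lyz2 and 211 to 206 bases before that of Mrc1, and Ptprc, with 2 windows, held it at 112 to 107 bases and on the opposite strand at 58 to 53 bases in one and at 237 to 232 bases in the other, against 19.7% of all windows. Matches of this kind describe the sequence and say nothing about which proteins were bound in these mice.

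The library totals ranged from 9680976 to 15771170 counts, so that 1 count was worth 0.0649 to 0.102 CPM (the depth-scaled unit of expression used here, with TMM factors). Gm15551 itself had 0 counts in all 5 ΔGm15551 mice and 0 to 7 counts in wild type, where the pooled count was 16. At this depth the label of a single mouse with 0 counts, wild type replicate 7 among them, could not be checked. Libraries also differed in RNA of skeletal muscle, a tissue next to the depot. A muscle score, the mean log2 CPM of 10 muscle genes, was above 4 in ΔGm15551 replicates 1 and 4 and in wild type replicates 5 and 7, and ran from -2.07 to 2.39 in the other 6 mice. The brown adipocyte label held, with the thermogenic gene Ucp1 at 5733 to 10964 CPM.

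None of the 10 immune markers passed the test between genotypes. At an adjusted p under 0.05 (edgeR quasi-likelihood test, Benjamini-Hochberg over all genes), 0 of the 10 and 0.00% of the 13732 genes tested were called. At an unadjusted p under 0.05 it was 0 of the 10, against 1.59% of all genes, and DESeq2 called 0 genes, with 322 at an unadjusted p under 0.05. The fitted log2 fold change (log2FC, ΔGm15551 over wild type) was below 0 for 8 of the 10 and above 0 for Cd14 and Cd74, with a median of -0.06 beside -0.00092 over all genes. This count of signs turned on single mice. Leaving out 1 mouse gave from 4 of the 10 below 0 (without wild type replicate 2) to 9 (for example without ΔGm15551 replicate 1). In bulk tissue, fewer cells of a type and less RNA per cell cannot be told apart. A gene's 2 groups were fully apart for 0 of the 10 markers, against 0.32% of all genes.

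**Figure D1:**
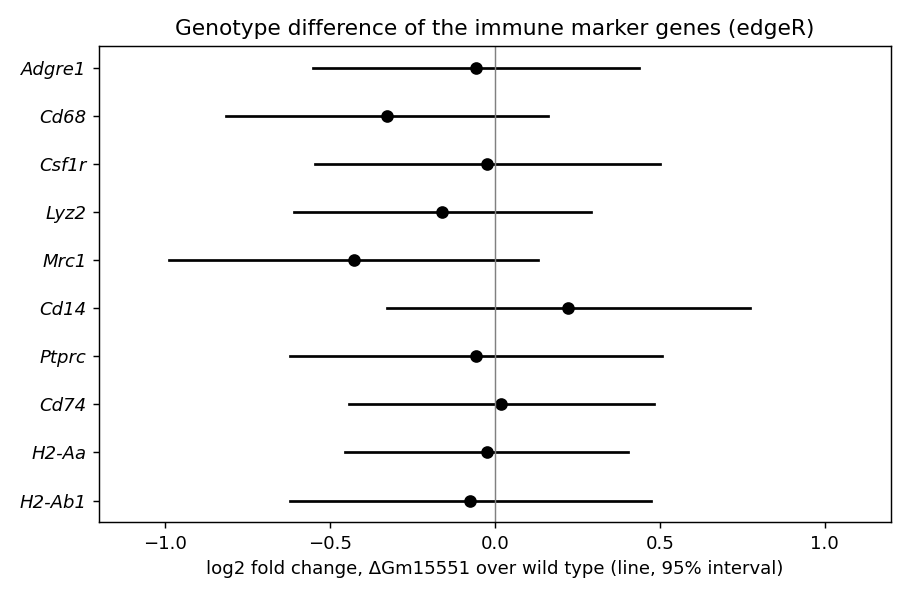
Fitted log2FC of each marker gene between ΔGm15551 and wild type iBAT (x axis; points, edgeR estimates; lines, 95% confidence intervals; n = 5 mice per group). All 10 intervals cross 0, and the lowest point is that of Mrc1 at -0.43.

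The macrophage markers of the surface and the lysosome were present at low to moderate levels. Adgre1 (ENSMUSG00000004730.15, chromosome 17, 57358691 to 57483527, plus strand) encodes F4/80, the adhesion receptor by which mouse macrophages are usually recognised. In ΔGm15551 mice it stood at 2.42, 2.34, 2.38, 1.61 and 1.79 CPM in replicates 1, 2, 4, 5 and 7. In wild type it stood at 3.04, 2.22, 1.499, 2.27 and 1.95 CPM in replicates 2, 3, 5, 6 and 7, and the ΔGm15551 values lay inside this range. The log2FC was -0.06 ± 0.23 (SE). With only 19 to 35 counts per mouse, the coefficient of variation of Adgre1 over the 10 mice was 21.1%. That is close to the 19.4% that counting alone gives over the counts of these mice. The data therefore hold little about differences of F4/80 RNA between single animals.

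Cd68 (ENSMUSG00000018774.13, chromosome 11, 69664213 to 69666153, minus strand) encodes macrosialin, a glycoprotein of the endosome and lysosome membrane. Its values in ΔGm15551 were 3.51, 2.13, 2.38, 1.84 and 1.93 CPM. Wild type mice had 4.02, 2.73, 2.71, 2.79 and 2.56 CPM, in the order of replicates given above. Thus 4 of the 5 ΔGm15551 mice lay below every wild type mouse, and replicate 1 lay above 4 of them. The log2FC was -0.33 ± 0.23, with a 95% interval from -0.81 to 0.16 and an unadjusted p of 0.171 in edgeR, and it did not pass the test (adjusted p = 0.9997). It was -0.52 without ΔGm15551 replicate 1 and -0.20 without wild type replicate 2. Counts of 24 to 48 per mouse lie behind these values.

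Lyz2 (ENSMUSG00000069516.8, chromosome 10, 117277331 to 117282321, minus strand) encodes lysozyme M, the bacteria-digesting enzyme whose gene drives myeloid Cre lines. It was read at 36.5, 24.2, 22.3, 22.4 and 22.7 CPM in ΔGm15551 and at 45.6, 22.6, 23.1, 23.3 and 28.6 CPM in wild type. In each group 1 mouse stood above the rest, ΔGm15551 replicate 1 and wild type replicate 2, while 7 of the other 8 lay between 22.3 and 24.2 CPM. The log2FC was -0.16 ± 0.21, and without wild type replicate 2 it was 0.07. Lyz2 shares 32.8% of its 31-base words with its neighbour Lyz1, which salmon has to divide between them. Lyz1 received 1 to 9 counts per mouse against 264 to 510 for Lyz2, or 1.34% of the sum of the pair after that division, and counts from reads that fit only 1 of the pair were not available to check it.

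Mrc1 had the fitted value farthest from 0. The gene (ENSMUSG00000026712.3, chromosome 2, 14229392 to 14332057, plus strand) encodes the mannose receptor CD206, an endocytic receptor of resident macrophages. ΔGm15551 mice had 8.34, 5.60, 5.12, 3.44 and 3.94 CPM, and wild type mice 8.84, 8.29, 4.14, 6.10 and 8.40 CPM. Group means were 5.29 ± 1.92 and 7.15 ± 1.99 CPM (SD, n = 5). Most of the ΔGm15551 mice lay in the lower part of the wild type range, 2 of them under it, but replicate 1 was level with the high wild type mice. The log2FC of -0.43 ± 0.26 had an interval from -0.99 to 0.13 (edgeR, unadjusted p = 0.123, adjusted p = 0.9997). Leaving out 1 mouse moved it most without ΔGm15551 replicate 1, to -0.65 (unadjusted p = 0.0179, adjusted p = 0.9993). Without the 4 mice with a muscle score above 4, a choice made after seeing the data, it was -0.83 (unadjusted p = 0.00666, adjusted p = 0.983), and the corresponding value of Cd68 was -0.69 (unadjusted p = 0.0319, adjusted p = 0.983). Neither passed the test there, with 3 mice left in each group.

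Signal receptors came next. Csf1r (ENSMUSG00000024621.16, chromosome 18, 61100598 to 61132149, plus strand) encodes the receptor for the growth factors CSF1 and IL-34. In ΔGm15551 its values were 14.3, 11.1, 9.06, 10.2 and 6.10 CPM, and in wild type 9.91, 8.37, 7.85, 8.90 and 16.8 CPM. The highest mouse, wild type replicate 7, had 2.75 times the level of the lowest, ΔGm15551 replicate 7, so both ends were held by 1 mouse of each group. The log2FC was -0.02 ± 0.24. Leaving out wild type replicate 7 moved it to 0.21, and leaving out ΔGm15551 replicate 1 moved it to -0.18.

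Cd14 (ENSMUSG00000051439.7, chromosome 18, 36725067 to 36726798, minus strand) encodes the co-receptor that hands bacterial lipopolysaccharide to TLR4. It reached 3.66, 2.06, 3.04, 3.21 and 2.01 CPM in ΔGm15551 and 2.95, 1.37, 2.997, 2.47 and 2.15 CPM in wild type. Although 3 of the 5 ΔGm15551 mice were above every wild type mouse, the other 2 were below 4 of them. The log2FC was 0.22 ± 0.26 (interval -0.33 to 0.77), on 16 to 50 counts per mouse, and it dropped to 0.0778 when wild type replicate 3 was left out and to 0.11 when ΔGm15551 replicate 1 was.

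Ptprc (ENSMUSG00000026395.16, chromosome 1, 138062861 to 138175708, minus strand) encodes CD45, the phosphatase carried by all nucleated blood cells, and so takes in lymphocytes as well as macrophages. Its levels were 4.76, 4.04, 2.75, 1.68 and 3.05 CPM in ΔGm15551 and 4.20, 3.16, 3.35, 3.83 and 2.36 CPM in wild type. The ΔGm15551 mice held both the highest and the lowest value, and the log2FC was -0.06 ± 0.26.

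The class II genes made up the upper end of the set together with Lyz2. Cd74 (ENSMUSG00000024610.15, chromosome 18, 60803848 to 60812652, plus strand) stood at 64.5, 42.6, 37.6, 47.8 and 37.1 CPM in ΔGm15551 and at 44.4, 26.8, 42.6, 45.9 and 66.9 CPM in wild type. Group means of 45.9 ± 11.3 and 45.3 ± 14.3 CPM (SD, n = 5) lay within a log2FC of 0.02 ± 0.21. At 314 to 881 counts per mouse, counting alone gives a coefficient of variation of 4.27%, against 26.6% observed, so most of the spread between mice was more than counting error.

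H2-Aa (ENSMUSG00000036594.15, chromosome 17, 34282744 to 34287823, minus strand) had 28.0, 19.4, 17.4, 15.1 and 17.0 CPM in ΔGm15551 and 22.3, 12.6, 17.5, 20.8 and 25.6 CPM in wild type. H2-Ab1 (ENSMUSG00000073421.6, chromosome 17, 34257689 to 34269419, plus strand) had 32.4, 20.9, 16.8, 21.9 and 15.5 CPM in ΔGm15551 and 24.5, 11.8, 19.3, 24.0 and 33.7 CPM in wild type. The same mice were at the ends for Cd74 and both chains: wild type replicate 3 was lowest, and ΔGm15551 replicate 1 and wild type replicate 7 were the top pair. The log2FC was -0.02 ± 0.20 for H2-Aa and -0.07 ± 0.25 for H2-Ab1. In the fit of all 10 mice the bounds of the 95% intervals of the 10 genes ran from 0.504-fold (Mrc1) to 1.71-fold (Cd14). A 2-fold decrease of Mrc1 lay just outside its interval there and inside it in 9 of 22 alternatives, among them without ΔGm15551 replicate 1 (log2FC interval -1.17 to -0.13). An interval also reached a 2-fold change in 4 of the 22 for Cd68, in 2 each for Csf1r and Ptprc and in 1 each for Adgre1, Cd14 and Lyz2.

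**Figure D2:**
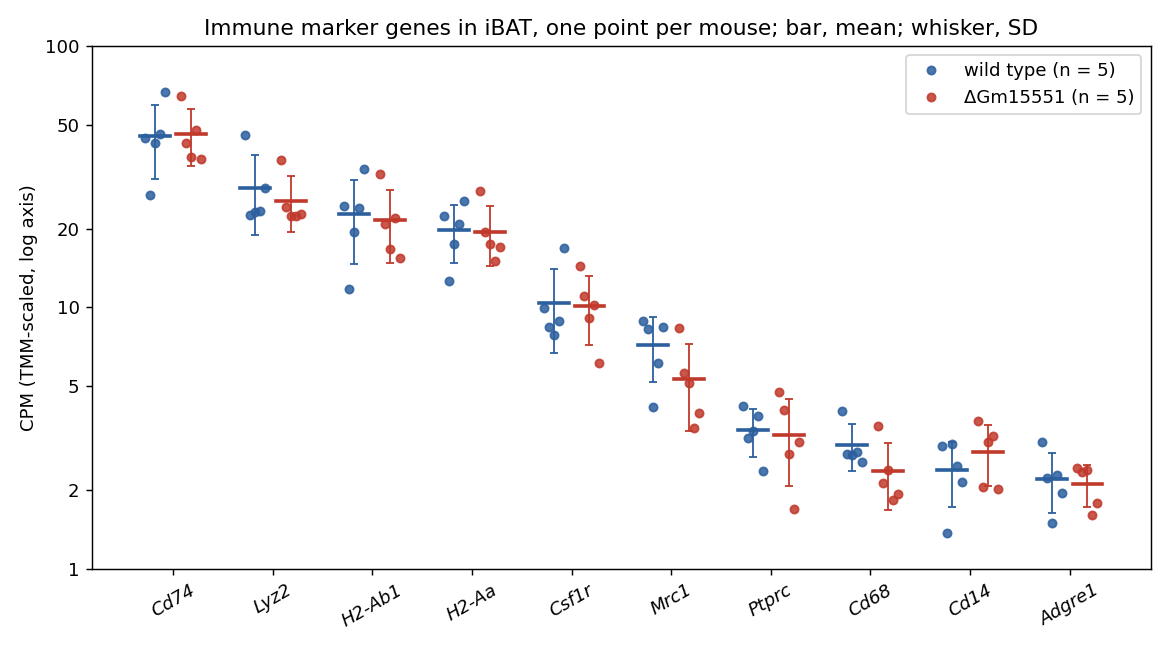
CPM of the 10 marker genes (y axis, log scale) in each mouse, ordered by mean level; each point is 1 mouse (blue, wild type; red, ΔGm15551; n = 5 each), bars are means and whiskers SD. The groups overlap for all 10 genes, and the values run from 1.37 CPM (Cd14) to 66.9 CPM (Cd74).

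Levels of different genes were compared per kb of annotated exon. In CPM per kb, Cd74 was highest (27.2 ± 7.22, SD, n = 10), followed by Lyz2 (20.6 ± 5.96), H2-Ab1 (8.59 ± 2.71), H2-Aa (5.15 ± 1.24) and Cd68 (2.12 ± 0.542). Below them came Csf1r (1.78 ± 0.548), Cd14 (1.496 ± 0.402), Mrc1 (0.977 ± 0.328), Adgre1 (0.664 ± 0.140) and Ptprc (0.181 ± 0.0504). Ranges over the mice did not overlap between Lyz2 and H2-Ab1, between H2-Aa and Cd68 and between Adgre1 and Ptprc, which cuts the order into 4 tiers on this scale. Neighbours within a tier overlapped, although H2-Ab1 was above H2-Aa, and Mrc1 above Adgre1, in 10 of 10 mice. Per kb of the longest transcript, H2-Ab1 was at 18.2 and Ptprc at 0.578, and the tiers changed. H2-Ab1 (9.73 to 27.8) then overlapped Lyz2 (16.9 to 34.6) and no longer H2-Aa (3.90 to 8.68), and Ptprc (0.293 to 0.829) overlapped Adgre1 (0.463 to 0.938). In the order of the means Cd68 (2.16) and Csf1r (2.18) changed places on that scale.

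The 10 genes together took 0.00962% to 0.0202% of the counts of a mouse. The summed CPM of Cd74, H2-Aa and H2-Ab1 was 125, 82.9, 71.8, 84.8 and 69.6 in ΔGm15551 and 91.2, 51.2, 79.4, 90.7 and 126 in wild type. That of the other 7 genes was 73.5, 51.4, 47.0, 44.4 and 41.5 in ΔGm15551 and 78.5, 48.7, 45.7, 49.7 and 62.8 in wild type. The order of the mice was partly shared, with an r of 0.615 and a rho of 0.818 between the mean class II profile and that of the other 7 genes over the 10 mice. Class II exceeded the other markers 1.53- to 1.91-fold in ΔGm15551 and 1.74- to 2.01-fold in wild type replicates 5, 6 and 7, but only 1.16-fold in wild type replicate 2 and 1.05-fold in replicate 3. Those last 2 wild type mice carry animal numbers near those of the ΔGm15551 mice, whereas the other 3 belong to a much later run of numbers. No single marker separated the 2 runs of wild type mice without overlap.

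**Figure D3:**
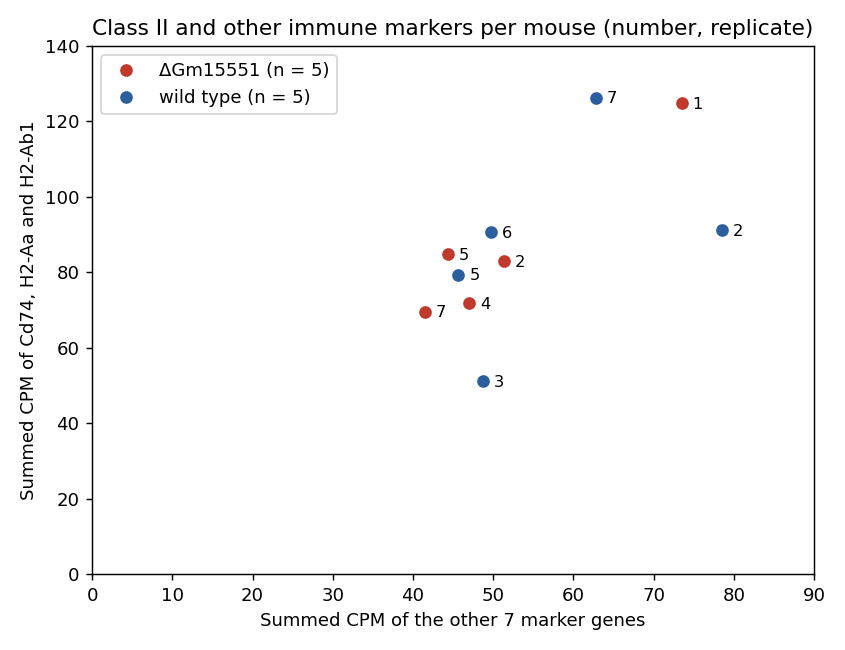
Summed CPM of Cd74, H2-Aa and H2-Ab1 (y axis) against that of the other 7 markers (x axis), 1 point per mouse with its replicate number (red, ΔGm15551; blue, wild type). ΔGm15551 replicate 1 and wild type replicate 7 lie at the top at 125 and 126, wild type replicate 2 lies farthest right at 78.5, and wild type replicate 3 lies lowest at 51.2.

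Across the 10 mice the class II genes followed each other closely. Pearson's r of log2 CPM was 0.9751 between Cd74 and H2-Ab1, 0.904 between H2-Aa and H2-Ab1 and 0.865 between Cd74 and H2-Aa, and it was 0.940, 0.782 and 0.709 after the 2 mice farthest from the median were left out. Among all pairs of genes tested, 0.00934%, 0.439% and 1.01% had an r as high, and the median over all pairs was -0.001. These are descriptions over 10 mice whose libraries share depth and tissue mix, and Spearman's rho was 0.939, 0.867 and 0.709 in the same order.

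Cd68, Lyz2, Mrc1 and Adgre1 had r from 0.64 to 0.81 with each other, values reached by 8.14% to 2.08% of all gene pairs, though the low counts of Adgre1 and Cd68 make single values of r uncertain. Csf1r, a macrophage gene by its role, had r of 0.79, 0.69 and 0.81 with Cd74, H2-Aa and H2-Ab1 and of 0.26 to 0.57 with Adgre1, Cd68, Lyz2 and Mrc1. Cd14, also a myeloid marker, had r of 0.01 with Adgre1, 0.26 with Cd68, 0.38 with Lyz2 and -0.20 with Mrc1, and of 0.58, 0.48 and 0.56 with Cd74, H2-Aa and H2-Ab1. These values turned on a few mice: without the 2 farthest, r was 0.49 with Adgre1, -0.17 with Lyz2 and -0.15, -0.40 and -0.10 with the class II genes. Ptprc had r of 0.02, 0.44 and 0.14 with Cd74, H2-Aa and H2-Ab1. Its r was 0.62, 0.68, 0.50 and 0.51 with Adgre1, Cd68, Lyz2 and Mrc1, and 0.01 and 0.04 with Csf1r and Cd14. Without the 2 farthest mice it was 0.62 with Adgre1, 0.44 with Cd68, -0.08 with Lyz2 and 0.08 with Mrc1. The mean class II profile had an r of 0.532 with the muscle score and of -0.648 with log2 Ucp1, and the profile of the other 7 genes 0.312 and -0.533. The part of tissue mix in these patterns was not tested.

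**Figure D4:**
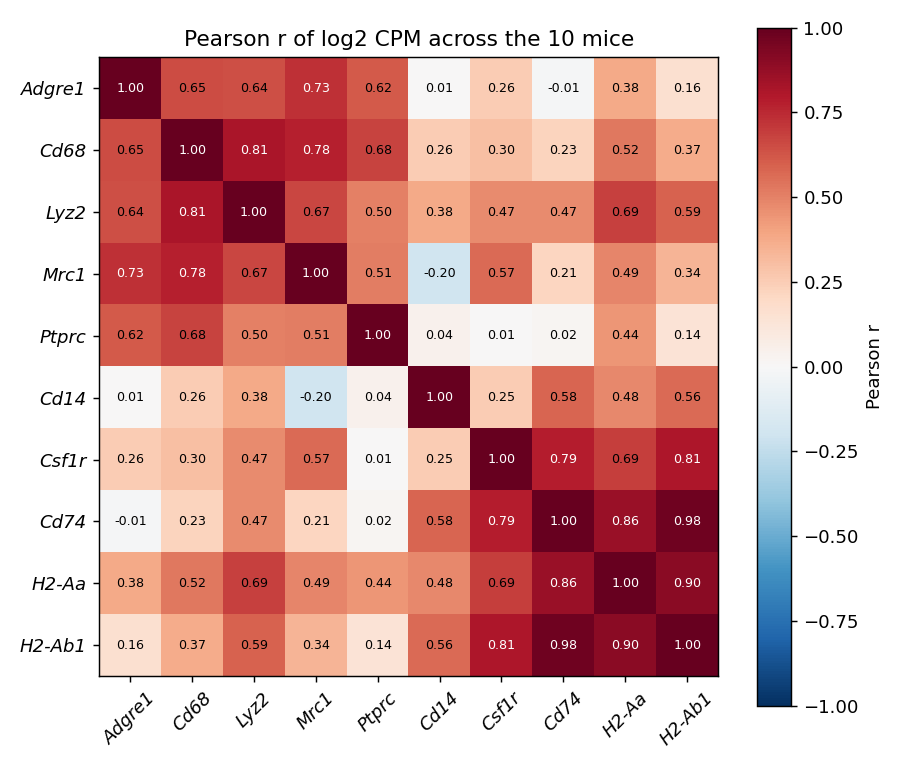
Pearson's r of log2 CPM between each pair of marker genes across the 10 mice (colour and printed number; red, positive; blue, negative). Values are highest among Cd74, H2-Aa and H2-Ab1 (0.86 to 0.98), and Csf1r stands nearer to these than to Adgre1, Cd68 and Lyz2.

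Among 9795 other genes whose mean reached 5 CPM or more, those most like the class II profile across the 10 mice were Limd2 (r = 0.963), Snrpa1 (0.957), Laptm5 (0.950), Brf1 (0.941) and H2-Eb1 (0.939). Laptm5 encodes a lysosomal membrane protein of blood cells, and H2-Eb1 is the class II gene whose promoter is shown above. H2-Eb1 ran from 30.8 to 63.6 CPM and was lowest in wild type replicate 3 and highest in wild type replicate 7, as were Cd74 and H2-Ab1. The α chain gene of the same molecule, H2-Ea, had 0 counts in all 10 mice, or up to 3 of 130040988 pooled counts (0.0231 CPM). Its absence is a known feature of the C57BL/6 haplotype, in which H2-Ea carries a deletion.

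Nearest to the profile of the other 7 markers were F13a1 (r = 0.916), Fra10ac1 (0.910), Arfgap3 (0.908), Pdgfra (0.903) and Malt1 (0.888). F13a1, the A subunit of clotting factor XIII, is a gene of resident macrophages, and Pdgfra, a receptor of fibroblast and adipocyte precursor cells, is not an immune gene.

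Further genes of the same cells and pathways also showed no call. In a list of 26 resident macrophage genes 16 were tested, 0 were at an unadjusted p under 0.05, and 14 had a log2FC below 0 (median -0.19). Over all genes, 6902 of 13732 were below 0 (median -0.00092). Genes of this and the other lists come from the same 10 mice and can vary together, so their signs are not independent. The 3 macrophage genes with the highest CPM were Mertk, a receptor for the uptake of dead cells (11.1 CPM in either group, log2FC 0.01 ± 0.19), and the complement genes C1qa (8.42 and 9.72 CPM, -0.20 ± 0.26) and C1qb (8.04 and 9.27 CPM, -0.20 ± 0.26). Cd5l, a scavenger protein of macrophages of liver and spleen, had 0 counts in every mouse.

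For the receptor Csf1r, the ligand genes Csf1 and Il34 were expressed at 10.9 and 3.43 CPM in ΔGm15551 and at 11.7 and 3.76 CPM in wild type. In the CSF1 receptor list 13 of 14 genes were tested, 4 lay above 0 and 9 below, with a median of -0.11. By CPM the list is led by the transcription factor genes Cebpb (log2FC 0.28 ± 0.15) and Cebpa (0.17 ± 0.19), which are also strongly used by adipocytes.

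In class II presentation, 15 of 22 listed genes were tested, 6 above 0 and 9 below (median -0.04), led in CPM by the proteases Ctsl (0.04 ± 0.09) and Lgmn (-0.12 ± 0.12) and the NF-Y subunit Nfyc (0.01 ± 0.09). Ciita itself had 10 to 31 counts per mouse and a log2FC of -0.20 ± 0.33. Across the mice, Ciita had an r of 0.22 with the mean class II profile and of 0.75 with the profile of the other markers. At such low counts a single r is uncertain, and the part of Ciita in the shared pattern of the class II genes was not tested.

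For Cd14 and the TLR4 pathway, 12 of 15 genes were tested (4 above 0, 8 below, median -0.10), with Nfkbia at -0.14 ± 0.24, Nfkb1 at 0.17 ± 0.10 and the adaptor Myd88 at 0.16 ± 0.12. The cytokine genes at the end of this pathway were barely seen, with 0 to 2 counts per mouse for Tnf, 0 to 5 for Il1b and 0 to 1 for Il6. The list of CD45 substrates and pan-leukocyte genes had 12 of 15 tested (2 above 0, 10 below, median -0.07), with the kinases Fyn (-0.00 ± 0.20) and Lyn (0.01 ± 0.16) and the actin regulator Coro1a (0.26 ± 0.32) at the highest CPM.

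RNA of lymphocyte genes was scarce. Of 42 genes in the lists for T cells, B cells and NK or innate lymphoid cells, 3 were tested, and 40 had at most 100 counts summed over the 10 mice. Cd3e of the T cell receptor complex had 1 to 8 counts per mouse, the B cell gene Ms4a1 had 2 to 14, and Ncr1 of NK cells had 0 to 5. Among those tested were Cd247, a signalling chain of the T cell receptor (log2FC 0.12 ± 0.55), and Ighm, the heavy chain of immunoglobulin M. Ighm ran from 3.75 CPM in wild type replicate 2 to 19.5 CPM in wild type replicate 6 (log2FC -0.36 ± 0.42). At this depth most of these genes had too few counts to show differences in lymphocyte content. Ighm, at 42 to 301 counts per mouse, varied widely between mice and was not called between genotypes.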

How the data were processed

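Poly A RNA of iBAT from 10 mice was sequenced as paired-end reads. Per the methods of the study and the labels, the authors used cutadapt for quality filtering and salmon for quantification on GENCODE M22 (GRCm38), alone or joined with RNAcentral, and tool versions are not given in the sources used here. The deposited values were estimated counts (expected counts) per gene as whole numbers, unscaled. Whether counting used the strand is not stated, nor is the rounding step. Each library carries its own mouse number.

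Counts were fitted in R 4.3.3 with edgeR 4.0.16: filterByExpr (minimum count 10, minimum total count 15), TMM, and a robust quasi-likelihood fit on genotype alone. SEs of log2FC values follow from the F statistics, intervals are at 95%, and log2 CPM used a prior count of 2. The common biological coefficient of variation was 0.229. Exon lengths and positions came from GENCODE M21 (99.5% of gene IDs found). Without molecular identifiers a read is not an independent molecule, so floors (3 counts) cover counting error only. The fit was tested on simulated data.

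The members, the 15 gene lists and the alternatives were chosen with earlier results of these data known. Named were all members, up to 3 tested genes of highest mean CPM in a list, list genes at 0 in all mice, and the 5 genes nearest each profile (the mean z-score of log2 CPM over Cd74, H2-Aa and H2-Ab1, or over the other 7 genes). Csf1, Il34, Ciita, the cytokine genes and the untested lymphocyte genes fall outside this rule and were chosen for their role after their values were seen. Some list genes are not reported here by name. H2-Ea and Marchf1 were found under these newer symbols. Alternatives were DESeq2 1.42.0, its size factors, library totals, other filters, limma-voom (limma 3.58.1), non-robust estimation, leaving out mice, a replicate block and a muscle score covariate. No pair of mice in a group agreed within sampling noise (smallest chi-square per degree of freedom 12.6).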

Additional observations from a re-analysis of the deposited data

Results flagged for a closer look

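Within groups of 5 mice, 5 of 26 searched had 1 mouse far from the rest (Dixon's ratio above 0.71), where chance flags about 1 in 20 groups, or 1.3 of 26. The 26 include sums and a ratio of the same genes, and genes that vary together. They are therefore not independent, and the 1.3 is a rough guide, not a test of an excess. The 5 come from 3 mice. In wild type replicate 2, Cd68 was at 4.02 CPM (the others 2.56 to 2.79) and Lyz2, of the same lysosomal compartment, at 45.6 CPM (the others 22.6 to 28.6). In ΔGm15551 replicate 1, Lyz2 was at 36.5 CPM (the others 22.3 to 24.2), and the summed Cd74, H2-Aa and H2-Ab1 were at 125 CPM (the others 69.6 to 84.8). In wild type replicate 7, Csf1r was at 16.8 CPM (the others 7.85 to 9.91).

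Other tissue RNA in these mice is given for comparison. Muscle scores were 5.61 in ΔGm15551 replicate 1, 7.75 in wild type replicate 7 and 2.17 in wild type replicate 2. The summed CPM of 5 red blood cell genes was 1747, 2538 and 612 in the same order, over a range of 612 to 2538 in all mice. The summed CPM of 8 endothelial genes was 1289, 1186 and 1054, with ΔGm15551 replicate 1 and wild type replicate 7 the highest of the 10 mice. Ucp1 was lowest in the same pair, at 5733 and 6421 CPM, and stood at 8959 CPM in wild type replicate 2. ΔGm15551 replicate 4, with a muscle score of 7.12, had a class II sum of 71.8 CPM. The part of such RNA in the high values was not tested.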

How the results depend on the processing

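In each of 23 alternatives 0 of the 10 markers and 0 list genes passed the test. The lowest adjusted p of a marker was 0.835 and the lowest unadjusted p 0.00666 (Mrc1, without the 4 mice with a muscle score above 4). Mrc1 and Cd68 stayed below 0 in every alternative, from -0.83 to -0.31 and from -0.69 to -0.20. A marker was at an unadjusted p under 0.05 in 7 of the 23, with 1 or 2 of the 10 markers in each beside 1.41% to 4.00% of all genes tested there. These alternatives share most of their mice. Mrc1 was so without ΔGm15551 replicate 1 (-0.65), without wild type replicate 5 (-0.58), without the 3 late-numbered wild type mice (-0.69), with the replicate block (-0.68), in the same 6 mice with no block (-0.71) and without the 4 mice named above. Cd68 was so without ΔGm15551 replicate 1 (-0.52), with sample quality weights (-0.41) and without those 4 mice (-0.69). Of 230 log2FC values 30 changed sign, with the cause not tested. Leaving out 1 mouse gave Cd74 -0.13 to 0.20, Csf1r -0.18 to 0.21, H2-Aa -0.19 to 0.0833, H2-Ab1 -0.27 to 0.11, Adgre1 -0.17 to 0.0848, Ptprc -0.23 to 0.10, Lyz2 -0.32 to 0.0708, Mrc1 -0.65 to -0.31, Cd68 -0.52 to -0.20 and Cd14 0.0778 to 0.32. Under limma-voom Csf1r was 0.0026, and with sample quality weights Adgre1 was 0.0293, Cd74 -0.0437 and Cd14 0.0379. With the 3 late-numbered wild type mice left out, Csf1r was 0.15, H2-Aa 0.16, H2-Ab1 0.25, Cd74 0.37, Cd14 0.38 and Adgre1 -0.32, and without the 4 mice with a muscle score above 4 Csf1r was 0.0087, Adgre1 -0.39, Ptprc -0.35 and Lyz2 -0.40.

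Replicate numbers 2, 5 and 7 occur in both groups, but the correlations of their deviations were -0.07, 0.05 and -0.39, so they were not taken to pair the mice. With a replicate block in these 6 mice 0 genes of the set were called, and all 10 had a log2FC below 0, both with the block and without it. With the block Cd14 was -0.17, Cd74 -0.25, Lyz2 -0.43, H2-Aa -0.33, H2-Ab1 -0.39, Csf1r -0.29, Cd68 -0.63, Ptprc -0.22 and Adgre1 -0.14, and without it Cd14 was -0.16 and Cd74 -0.27. Depth limits Adgre1, Cd68, Cd14 and Ptprc, at 16 to 65 counts per mouse, and lymphocyte genes most.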

Other observations

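Other cell types and signals around the immune markers were also measured. Among 18 leukocyte recruitment genes 9 were tested, 3 with a log2FC above 0 and 6 below (median -0.10), 0 at an unadjusted p under 0.05. The chemokine gene Cxcl12 led with 253 and 236 CPM in ΔGm15551 and wild type (0.10 ± 0.18), followed by Cxcl14 (33.7 and 37.4 CPM, -0.15 ± 0.17) and the adhesion gene Icam1 (10.2 and 9.23 CPM, 0.16 ± 0.24). The 6 tested of 8 endothelial genes all had a log2FC above 0 and none was at an unadjusted p under 0.05, with Kdr at 0.06 ± 0.19, Cdh5 at 0.13 ± 0.16 and Pecam1 at 0.08 ± 0.19.

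Most genes of the dendritic cell list and of the granulocyte and mast cell list did not pass the filter on low counts. Of 10 dendritic cell genes Zbtb46 (30.4 and 30.7 CPM in ΔGm15551 and wild type, -0.01 ± 0.17) and Clec9a (1.64 and 1.94 CPM, -0.24 ± 0.27) were tested. Itgax of the same list had only 1 to 11 counts per mouse, and which cells the Zbtb46 RNA came from was not tested. Of 15 granulocyte and mast cell genes Csf3r (0.897 and 0.708 CPM, 0.37 ± 0.41) and Kit (2.03 and 2.63 CPM, -0.35 ± 0.32) were tested. Brown adipocyte genes (10 of 10 tested, 7 above 0, median 0.05), skeletal muscle genes (10 of 10, 3 above 0, median -0.27) and red blood cell genes (5 of 5, 4 above 0, median 0.05) had 0 genes at an unadjusted p under 0.05.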
